A study of Mus musculus with 4 samples.

Results

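The myelin genes described here are 8 genes chosen by symbol, *Mbp*, *Pmp22*, *Prx*, *Mag*, *Cnp*, *Egr2*, *Mal* and *Pllp*, which Schwann cells, the glia of peripheral nerves, use to build and maintain myelin. Each symbol was matched to 1 Entrez gene identifier, and all 8 genes were listed in all 4 libraries, among 17667 genes listed in at least 1 library and 15275 listed in all 4. The study asked how the neurotrophin NT-3 and its receptor TRKC act on the sympathetic ganglia (SG) that supply brown fat, and measured mRNA in SG from thoracic levels T1 to T4 by RNA-seq. All libraries came from C57BL/6 mice 12 weeks old that had spent 1 day at 5 °C, and each library was made from the pooled tissue of 6 mice. There were 2 WT libraries (WT_1 and WT_2), 1 library from TRKC+/- mice, in which haploinsufficiency for the TRKC gene *Ntrk3* is present in all cells, and 1 library from AdNTF3-Tg mice, in which the adiponectin promoter drives the NT-3 coding sequence in adipocytes. The labels do not tell which WT library is the control of which mutant. Each mutant library was therefore compared with the mean of both WT libraries and with each WT library alone. The reads counted on genes ranged from 8665955 to 8894985 per library. The floor of detection was set at 3 reads, or 0.337 to 0.346 CPM (reads scaled to the library total).

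Myelin is the stack of Schwann cell membrane wrapped around an axon. Its compact layers are held together by proteins such as MBP and PMP22, while MAG sits on the membrane next to the axon and periaxin (PRX) lines the outer surface of the sheath. The transcription factor EGR2 acts together with SOX10 to switch on myelin genes. In SG most axons of the ganglion neurons are unmyelinated and lie in non-myelinating Schwann cells, the neuron bodies are wrapped by satellite glia, and part of the incoming preganglionic axons are myelinated.

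To let the regions in which EGR2 and SOX10 could bind be read beside the levels, the 250 bases before the transcription start were taken from RefSeq (GRCm38.p6). The table used here gave them for 7 of the 8 genes (not for *Mbp*), in 16 start sites, some of which have overlapping windows. Shown are *Mag* and *Prx*, the members with the lowest log2 fold change in AdNTF3-Tg and the highest in the library labelled TRKC+/-, and *Cnp*, one of the abundant members. Each is written 5′ to 3′ on the strand of its gene, and capitals mark a match on either strand to the SOX core (ACAAAG or ACAATG) or the EGR core (GTGGGNG), which do not overlap in these windows. The *Mag* window is chr7:30914923-30915172 on the minus strand, the *Prx* window is chr7:27499074-27499323 on the plus strand and the *Cnp* window is chr11:100574689-100574938 on the plus strand.
Mag: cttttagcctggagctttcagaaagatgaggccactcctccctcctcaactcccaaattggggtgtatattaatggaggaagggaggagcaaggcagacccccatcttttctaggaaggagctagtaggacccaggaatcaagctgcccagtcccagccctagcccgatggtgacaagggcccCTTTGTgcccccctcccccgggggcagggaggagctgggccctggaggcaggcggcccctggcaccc
Prx: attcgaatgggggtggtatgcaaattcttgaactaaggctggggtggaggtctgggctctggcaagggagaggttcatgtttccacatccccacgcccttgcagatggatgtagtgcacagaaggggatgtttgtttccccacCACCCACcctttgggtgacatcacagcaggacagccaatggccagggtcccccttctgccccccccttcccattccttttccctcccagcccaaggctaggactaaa
Cnp: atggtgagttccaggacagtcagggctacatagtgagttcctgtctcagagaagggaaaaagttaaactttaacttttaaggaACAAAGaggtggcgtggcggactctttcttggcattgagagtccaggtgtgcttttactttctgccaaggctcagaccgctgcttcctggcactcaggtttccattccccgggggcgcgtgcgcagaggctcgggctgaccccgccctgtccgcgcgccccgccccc
In these windows the SOX core ended 62 bases before the start in *Mag* and 162 bases before it in *Cnp*, and the EGR core ended 101 bases before it in *Prx*. Of the 16 windows of the myelin genes, 3 held the SOX core (1 of *Cnp* and 2 of *Mag*, which overlap and share the same match) and 3 the EGR core (1 each of *Mag*, *Prx* and *Egr2*). Among 32851 RefSeq windows of the same length, 25.2% held the SOX core and 28.1% the EGR core. A match is a description of the letters and not a binding site.

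The targeted gene was examined before any direction was read from a label. *Ntrk3* (Entrez 18213) had 2.45 FPKM (78 reads) in WT_1, 2.52 FPKM (83 reads) in WT_2, 2.72 FPKM (91 reads) in the TRKC+/- library and 2.32 FPKM (76 reads) in the AdNTF3-Tg library. FPKM divides the reads of a gene by its length and by the reads of its library, so that levels can be compared between genes. *Ntrk3* was not lower in the library labelled TRKC+/-, so every direction given for it rests on its label. The NT-3 gene *Ntf3* was listed with 2 reads in the library labelled TRKC+/- and in no other library, so the transgene, which is driven in adipocytes, could not be checked in SG.

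The 8 genes fell into an abundant and a scarce set of 4 genes each. In every library *Pmp22*, *Mbp*, *Cnp* and *Mal* had between 28.5 and 378 FPKM, and *Mag*, *Prx*, *Pllp* and *Egr2* between 0.32 and 6.15 FPKM, against a median of 7.89 FPKM over all genes listed in all 4 libraries. The abundant set lay at or above percentile 81.7 of the listed genes of its library, and the scarce set at or below percentile 48.4. The order of the mean FPKM was *Pmp22*, *Mbp*, *Cnp*, *Mal*, *Mag*, *Prx*, *Pllp* and *Egr2*. This order held within each library except AdNTF3-Tg, where *Prx* was above *Mag*. The ranges over the 4 libraries overlapped for 3 pairs of neighbours in that order, *Mbp* and *Cnp*, *Mag* and *Prx*, and *Pllp* and *Egr2*. Within each library *Cnp* had 0.754 to 0.858 of the FPKM of *Mbp*, and *Pllp* was above *Egr2*, with 8 to 20 reads behind each of these values. *Prx* had 0.468 to 1.06 of the FPKM of *Mag*, the pair of neighbours whose order changed. The summed level of the 8 genes was 579.3 FPKM in WT_1, 558.5 FPKM in WT_2, 587.0 FPKM in the library labelled TRKC+/- and 559.3 FPKM in AdNTF3-Tg. Between 0.109% and 0.117% of the reads on genes belonged to them. *Pmp22* alone made up 61.5% to 67.6% of the summed FPKM. In bulk tissue, fewer Schwann cells and less RNA per Schwann cell cannot be told apart.

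**Figure D1:**
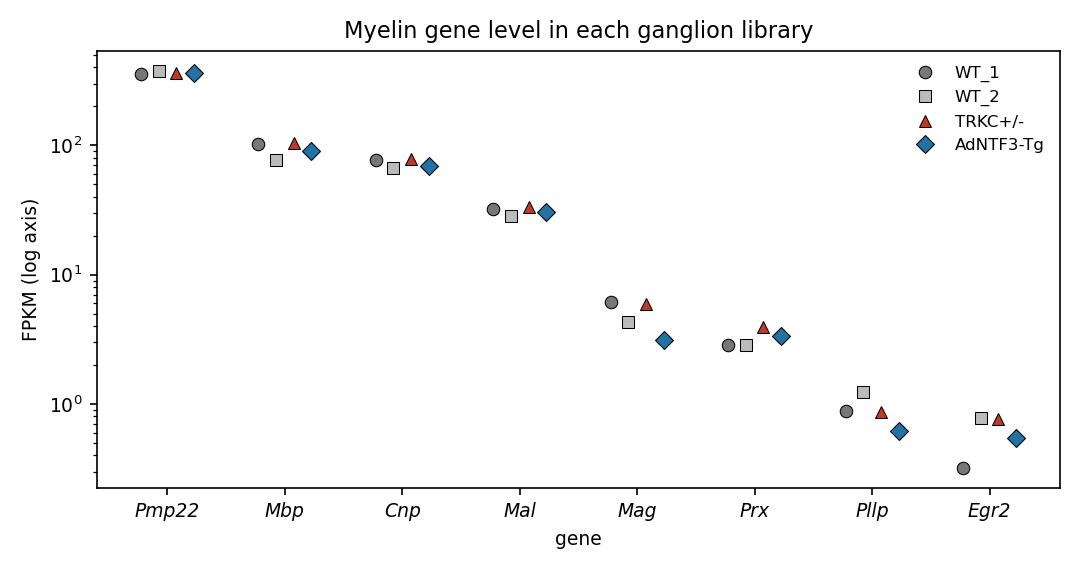
Level of each myelin gene (FPKM, log axis) in the 4 libraries, 1 point per library, with genes ordered by their mean level. *Pmp22* is at 358 to 378 FPKM in all libraries, while the AdNTF3-Tg point of *Mag* (3.13 FPKM) lies below the other 3, which are between 4.31 and 6.15 FPKM.

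The cell source was checked with other marker lists. *Sox10*, a transcription factor of Schwann cells and satellite glia, had 36.8 to 50.3 FPKM. Of 10 genes of oligodendrocytes, which myelinate axons in the central nervous system, 7 had at most 5 reads in any library. *Mog* had 5, 1 and 2 reads in WT_1, WT_2 and the library labelled TRKC+/- and was not listed in AdNTF3-Tg, *Mobp* had 1 read in AdNTF3-Tg alone, and *Olig2* was not listed in any library. The 10 oligodendrocyte genes together had 5.86 to 6.61 FPKM, most of it from the 3 listed in all libraries, *Myrf* (2.65 to 3.17 FPKM, 130 to 153 reads), *Cldn11* (1.26 to 2.19 FPKM, 20 to 35 reads) and *Nkx6-2* (0.68 to 1.67 FPKM, 11 to 27 reads). Some defining genes of myelinating Schwann cells were also near 0. *Gjb1*, which encodes connexin 32 of the myelin sheath, had 1 read in WT_1, 2 reads in the library labelled TRKC+/- and none in the others, and *Pmp2*, a fatty acid binding protein of peripheral myelin, had 1 read in the library labelled TRKC+/- alone. Satellite glia genes summed to 2245 to 2520 FPKM and sympathetic neuron genes to 10350 to 11030 FPKM. As background, *Pmp22*, *Cnp* and *Mal* are also expressed outside myelinating Schwann cells.

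The WT libraries differed from each other more than by counting error. A chi-square statistic over 14560 genes was 4.48 times its degrees of freedom, so they were treated as separate libraries. Log2 fold changes compare FPKM with a pseudocount of 0.1, and the cutoff was a difference of 0.5 or more on this scale. Between WT_1 and WT_2, 13.4% of all genes passed it (7.71% higher and 5.67% lower in WT_1), and so did 2 of the 8 myelin genes, *Mag* (0.50, higher in WT_1) and *Egr2* (-1.07, lower in WT_1). The 95% counting interval of the ratio of reads, which is exact, covers counting error only and compares libraries, not genotypes, excluded 0 for 6 of the 8 genes between the WT libraries, beside 20.5% of all genes. Such intervals are narrow for genes with many reads. The median log2 fold change of WT_1 against WT_2 was 0.087 over the myelin genes and 0.0068 over all genes. Skeletal muscle genes summed to 136 FPKM in WT_1, 24.8 FPKM in WT_2, 77.8 FPKM in the library labelled TRKC+/- and 59.9 FPKM in AdNTF3-Tg, and perineurial and nerve fibroblast genes to 58.4, 47.4, 59.0 and 52.7 FPKM in the same order. The part of these tissues in the differences among myelin genes was not tested.

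*Pmp22* (Entrez 18858, NCBIM37 chromosome 11, 62942484 to 62973049, plus strand) encodes the tetraspan protein of compact peripheral myelin whose dosage is critical in inherited neuropathy. It had 358 FPKM (5440 reads) in WT_1, 378 FPKM (5797 reads) in WT_2, 361 FPKM (5602 reads) in the library labelled TRKC+/- and 361 FPKM (5520 reads) in AdNTF3-Tg. Both mutant libraries lay between the WT libraries. Its log2 fold change against the mean of both WT libraries was -0.026 in the library labelled TRKC+/- and -0.025 in AdNTF3-Tg. The ratio of reads had counting intervals of -0.07 to 0.02 and -0.08 to 0.013. The SD of its log2 FPKM over the 4 libraries was 0.035, the smallest of the 8 genes, where genes averaging 10 FPKM or more had a median SD of 0.091.

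*Mbp* (Entrez 17196, NCBIM37 chromosome 18, 82644538 to 82755029, plus strand) encodes the basic protein that seals the cytoplasmic faces of compact myelin. It had 102 FPKM (1972 reads) in WT_1, 77.1 FPKM (1564 reads) in WT_2, 103 FPKM (2023 reads) in the library labelled TRKC+/- and 90.3 FPKM (1783 reads) in AdNTF3-Tg. WT_2 was the lowest library and AdNTF3-Tg lay between the WT libraries. WT_1 and WT_2 were apart by 0.41 on the log2 scale (interval of the ratio of reads 0.27 to 0.46). The library labelled TRKC+/- differed from WT_1 by 0.015 and from WT_2 by 0.42, so its log2 fold change of 0.20 against their mean came from the comparison with WT_2. In AdNTF3-Tg the log2 fold change against the mean was 0.012, with -0.18 against WT_1 and 0.23 against WT_2. The length by which its reads were scaled varied between libraries by 4.31% of the shortest, so its ratios of FPKM and of reads differ slightly.

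*Mag* (Entrez 17136, NCBIM37 chromosome 7, 31684202 to 31699851, minus strand) encodes the sialic acid binding adhesion protein of the inner, periaxonal membrane. It had 6.15 FPKM (127 reads) in WT_1, 4.31 FPKM (90 reads) in WT_2, 5.88 FPKM (124 reads) in the library labelled TRKC+/- and 3.13 FPKM (65 reads) in AdNTF3-Tg. AdNTF3-Tg was the lowest library and lay outside the WT range, while the library labelled TRKC+/- lay inside it. Its log2 fold change in AdNTF3-Tg was -0.72 against the mean of both WT libraries (interval of the ratio of reads -1.17 to -0.34). Against WT_1 it was -0.95 (interval -1.44 to -0.55) and against WT_2 it was -0.45 (interval -0.95 to 0.014), so the cutoff was not reached against WT_2 alone. In the library labelled TRKC+/- it was 0.17 against the mean (interval -0.16 to 0.50).

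*Mbp* and *Pmp22* lay inside the WT range in AdNTF3-Tg, where *Mag* was lowest. For each unit of *Mbp* FPKM, *Mag* had 0.0602 in WT_1, 0.0559 in WT_2, 0.0570 in the library labelled TRKC+/- and 0.0346 in AdNTF3-Tg. This ratio was lower in AdNTF3-Tg than in the other 3 libraries, which were close to each other although their *Mbp* levels were not. For each unit of *Pmp22* FPKM, *Mag* had 0.0172 in WT_1, 0.0114 in WT_2, 0.0163 in the library labelled TRKC+/- and 0.00866 in AdNTF3-Tg. AdNTF3-Tg was again lowest, but here WT_2 lay nearer to it than to WT_1. These ratios were not tested. The window of another start site of *Mag* overlaps the one printed and held the same SOX match and an EGR core.

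*Prx* (Entrez 19153, NCBIM37 chromosome 7, 28284343 to 28305233, plus strand) encodes periaxin, which links the outer Schwann cell membrane through dystroglycan to the basal lamina. It had 2.88 FPKM (117 reads) in WT_1, 2.87 FPKM (121 reads) in WT_2, 3.96 FPKM (166 reads) in the library labelled TRKC+/- and 3.33 FPKM (135 reads) in AdNTF3-Tg. The WT libraries were close to each other and both mutant libraries were above them. In the library labelled TRKC+/- the log2 fold change was 0.45 against the mean (interval of the ratio of reads 0.16 to 0.75). It was 0.45 against WT_1 (interval 0.12 to 0.82) and 0.45 against WT_2 (interval 0.10 to 0.80), under the cutoff each time. *Prx* was the only myelin gene whose interval lay above 0 against each WT library in the library labelled TRKC+/-, a pattern that 2.34% of all genes had. In AdNTF3-Tg the log2 fold change was 0.21 (interval -0.14 to 0.48). Exons of *Prx* overlap those of the antisense gene *Gm15541*, and whether the counting used strand is not given in the sources used here.

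*Cnp* (Entrez 12799, NCBIM37 chromosome 11, 100436218 to 100453043, plus strand) encodes the phosphodiesterase of the non-compact, cytoplasm-filled parts of myelin. It had 77.0 FPKM (1551 reads) in WT_1, 66.1 FPKM (1349 reads) in WT_2, 78.1 FPKM (1614 reads) in the library labelled TRKC+/- and 69.5 FPKM (1414 reads) in AdNTF3-Tg. The order of the libraries was that of *Mbp*, with WT_2 lowest. The log2 fold change was 0.12 in the library labelled TRKC+/- (interval of the ratio of reads 0.043 to 0.22) and -0.042 in AdNTF3-Tg (interval -0.14 to 0.048). Against WT_1 alone the library labelled TRKC+/- differed by 0.019, less than the 0.22 between the WT libraries. Exons of *Cnp* overlap those of *Dnajc7* on the opposite strand, so reads of the latter may be among its counts.

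*Mal* (Entrez 17153, NCBIM37 chromosome 2, 127458962 to 127482431, minus strand) encodes a proteolipid of lipid-rich membrane domains. It had 32.0 FPKM (763 reads) in WT_1, 28.5 FPKM (688 reads) in WT_2, 33.0 FPKM (804 reads) in the library labelled TRKC+/- and 30.4 FPKM (729 reads) in AdNTF3-Tg. WT_2 was again the lowest and the library labelled TRKC+/- the highest, and AdNTF3-Tg lay inside the WT range. The log2 fold change was 0.13 in the library labelled TRKC+/- (interval -0.0005 to 0.25) and 0.0043 in AdNTF3-Tg (interval -0.13 to 0.13).

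*Pllp* (Entrez 67801, NCBIM37 chromosome 8, 97198795 to 97220142, minus strand) encodes plasmolipin, a proteolipid related to MAL. It had 0.88 FPKM (14 reads) in WT_1, 1.24 FPKM (20 reads) in WT_2, 0.86 FPKM (14 reads) in the library labelled TRKC+/- and 0.62 FPKM (10 reads) in AdNTF3-Tg. Both mutant libraries were below the WT range. The log2 fold change of -0.69 in AdNTF3-Tg passed the cutoff, but the interval of the ratio of reads was -1.96 to 0.28, so a difference was not detectable at this depth. With a pseudocount of 1 it was -0.35. In the library labelled TRKC+/- the log2 fold change was -0.27 (interval -1.32 to 0.63).

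*Egr2* (Entrez 13654, NCBIM37 chromosome 10, 66998223 to 67004936, plus strand), the zinc finger factor of the myelin program, had 0.32 FPKM (8 reads) in WT_1, 0.78 FPKM (20 reads) in WT_2, 0.77 FPKM (20 reads) in the library labelled TRKC+/- and 0.55 FPKM (14 reads) in AdNTF3-Tg. Both mutant libraries lay inside the WT range, and its ratio of highest to lowest FPKM of 2.44 was the largest of the 8 genes. In the library labelled TRKC+/- the log2 fold change was 0.42 against the mean of both WT libraries, 1.05 against WT_1 (interval of the ratio of reads 0.039 to 2.68) and -0.017 against WT_2 (interval -0.98 to 0.96). WT_1 thus decided it. In AdNTF3-Tg it was 0.00 against the mean (interval -1.05 to 0.97).

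**Figure D2:**
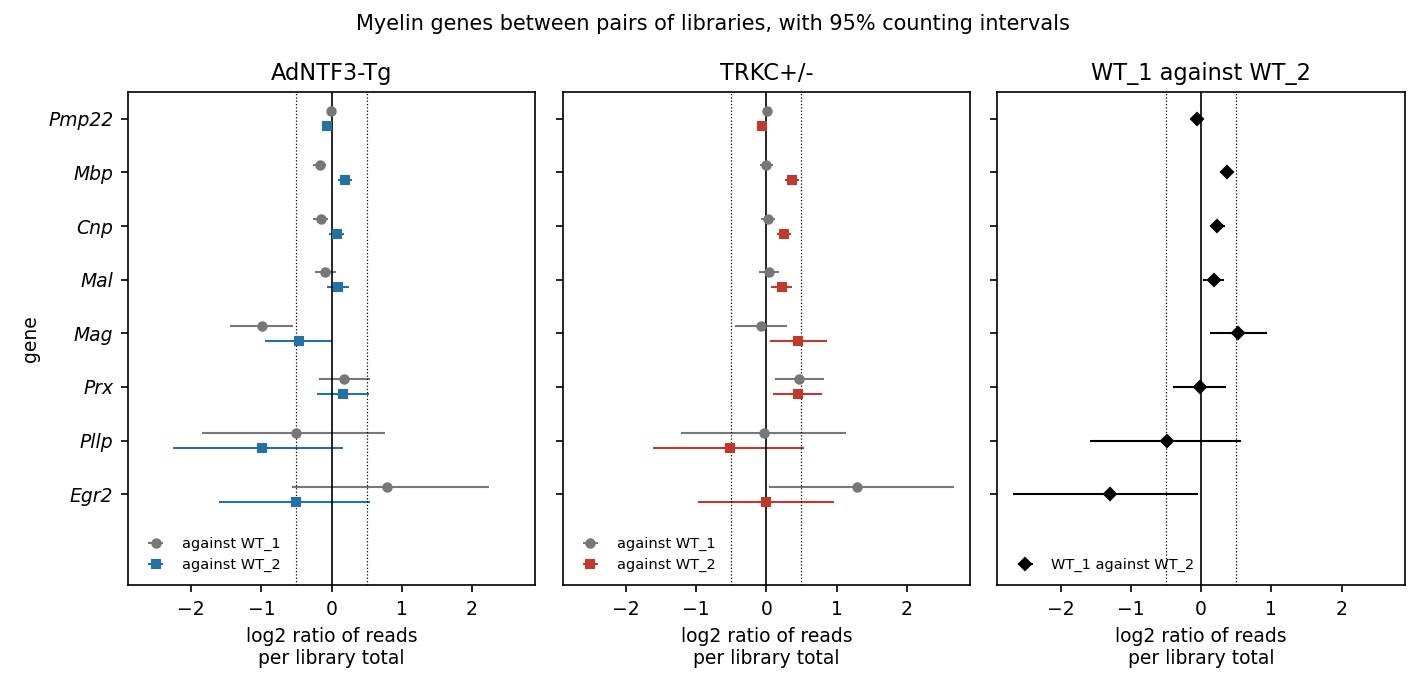
Log2 ratio of reads per library total for each myelin gene (x axis), in AdNTF3-Tg (left) and the library labelled TRKC+/- (middle) against each WT library, and between the WT libraries (right). Points are ratios, horizontal bars exact 95% counting intervals and dotted lines the cutoff of 0.5 in each direction. *Prx* in the library labelled TRKC+/- has intervals above 0 against both WT libraries, and the intervals of *Pllp* and *Egr2* are widest, from 8 to 20 reads per library.

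Over the 8 genes, the median log2 fold change in AdNTF3-Tg was -0.012, beside -0.0027 over all genes. Past the cutoff were 2 of the 8 myelin genes, both lower (*Mag* and *Pllp*), where 11.0% of all genes passed it, 4.01% higher and 6.95% lower. Against WT_1 alone *Mag* (lower) and *Egr2* (higher) passed it, beside 13.9% of all genes, and against WT_2 alone *Pllp*, beside 13.3%. No myelin gene passed it against both, where 2.12% of all genes were higher and 3.58% lower. Counting intervals excluded 0 for 3 of the 8 genes against WT_1 (25.9% of all genes) and 2 against WT_2 (20.7%), and for none in the same direction against both (4.84% of all genes above 0 and 5.31% below). *Prx* was above both WT libraries and *Mag* and *Pllp* were below both, and over all genes these shares were 33.7% and 34.0%. In edgeR's quasi-likelihood test, in which the WT libraries gave the only estimate of the spread (1 residual degree of freedom) and the lone mutant library was assumed to vary like them, 0 of 14156 genes were called in AdNTF3-Tg (0.0%) at an adjusted p of 0.05. At an unadjusted p under 0.05 there were 832 (5.88%), and DESeq2 called 0. *Mag* had a log2 fold change of -0.74 in that fit and an adjusted p of 0.817 in edgeR's quasi-likelihood test, the smallest adjusted p of the 8 genes. Across the edgeR and DESeq2 settings its adjusted p ranged from 0.781 to 1.0. No myelin gene was thus called.

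In the library labelled TRKC+/-, the median log2 fold change of the 8 genes was 0.15, beside 0.0 over all genes. None of the 8 passed the cutoff, where 8.56% of all genes did, 3.48% higher and 5.09% lower. *Egr2* passed it against WT_1 alone, beside 10.7% of all genes, and none against WT_2 alone, beside 12.7%. None passed it against both, where 1.78% of all genes were higher and 2.49% lower. Counting intervals excluded 0 for 2 of the 8 genes against WT_1 (14.2% of all genes) and 6 against WT_2 (19.8%), and lay above 0 against both for *Prx* alone and below 0 for none (2.12% of all genes). Above both WT libraries were 4 myelin genes (*Mbp*, *Cnp*, *Mal* and *Prx*), beside 31.9% of all genes, and 1 (*Pllp*) was below both, beside 30.8%. *Mbp* was above WT_1 on the FPKM scale by 0.015 and level with it in the ratio of reads (-0.0008 on the log2 scale). The median was 0.017 against WT_1 alone and 0.23 against WT_2 alone, so most of it came from the lower levels in WT_2. edgeR's quasi-likelihood test called 1 of 14156 genes (0.00706%), *Ucp1*, the uncoupling protein of brown fat (log2 fold change -2.62, adjusted p = 0.00205), with 273 (1.93%) at an unadjusted p under 0.05, and DESeq2 called 2 (0.0114%). *Prx* had a log2 fold change of 0.46 and an adjusted p of 0.999 in edgeR's quasi-likelihood test, and no myelin gene was called. Adipocyte genes summed to 349 FPKM in WT_1, 312 FPKM in WT_2, 187 FPKM in the library labelled TRKC+/- and 247 FPKM in AdNTF3-Tg, and their part in the myelin values was not tested.

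**Figure D3:**
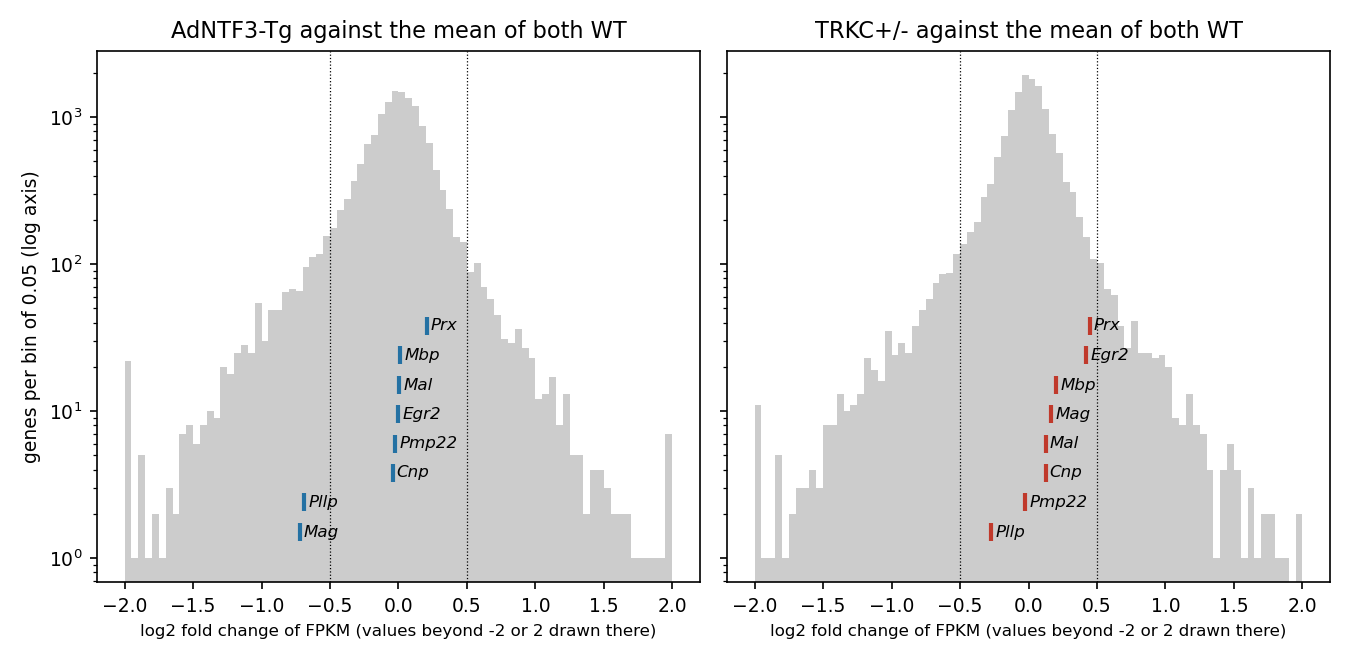
Distribution of log2 fold changes of FPKM over 15275 genes (grey, genes per bin of 0.05 on a log axis) for AdNTF3-Tg (left) and TRKC+/- (right) against the mean of both WT libraries, with the 8 myelin genes as coloured ticks at arbitrary heights. On the left, *Mag* and *Pllp* lie beyond the dotted cutoff of -0.5 and *Prx* at 0.21, with the other 5 near 0, and on the right all 8 lie inside the cutoffs.

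When the mutant libraries were set against each other, 7 of the 8 genes were lower in AdNTF3-Tg than in the library labelled TRKC+/-, with *Pmp22* the exception (0.0011), where 7715 of all 15275 genes were lower and 7376 higher. The median was -0.22, beside -0.0042 over all genes. *Mag* alone passed the cutoff (-0.89, interval of the ratio of reads -1.37 to -0.47), where 13.1% of all genes passed it, 5.98% higher and 7.14% lower. The intervals of *Mbp* (-0.26 to -0.075) and *Cnp* (-0.28 to -0.073) also lay below 0, and 22.3% of all genes had an interval that excluded 0. With 1 library each, this difference has no replicate check.

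Other genes of peripheral myelin were read in the same way. Of 24 such genes, 22 were listed in all 4 libraries. The median of these was 0.0085 in AdNTF3-Tg, with 3 past the cutoff, all higher (*Ncmap*, *Cldn19* and *Ugt8a*), where 4.01% of all genes were higher and 6.95% lower. It was 0.14 in the library labelled TRKC+/-, with 2 higher (*Cldn19* and *Ugt8a*) and none lower, where 3.48% of all genes were higher and 5.09% lower. *Ncmap*, a membrane protein of non-compact myelin, had 2.88, 1.88, 2.83 and 3.41 FPKM in the order WT_1, WT_2, TRKC+/- and AdNTF3-Tg. Its log2 fold change in AdNTF3-Tg was 0.50, with an interval of the ratio of reads that included 0 against WT_1 (-0.30 to 1.03) and lay above 0 against WT_2 (0.14 to 1.61). *Cd9*, a tetraspanin found in many cell types and the most abundant gene of the list, was lower than in both WT libraries, by -0.18 in AdNTF3-Tg and -0.077 in the library labelled TRKC+/-. *Lgi4*, a secreted signal of Schwann cells, had log2 fold changes of 0.13 in the library labelled TRKC+/- and -0.11 in AdNTF3-Tg.

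The list also held enzymes of myelin lipids. *Ugt8a*, which makes the galactolipid galactocerebroside, had 0.32 FPKM (10 reads) in WT_1, 0.29 FPKM (9 reads) in WT_2, 0.60 FPKM (19 reads) in the library labelled TRKC+/- and 0.58 FPKM (18 reads) in AdNTF3-Tg. Both mutant libraries were above both WT libraries, and the intervals of the ratio of reads included 0 against each. *Gal3st1*, which sulfates that lipid and was named after its values were seen, had 9.17 FPKM in WT_1, 8.80 FPKM in WT_2, 12.7 FPKM in the library labelled TRKC+/- and 6.96 FPKM in AdNTF3-Tg. Its intervals in the library labelled TRKC+/- lay above 0 against WT_1 (0.14 to 0.78) and WT_2 (0.26 to 0.91). *Cldn19*, a tight junction protein of the sheath, passed the cutoff on the FPKM scale in the library labelled TRKC+/- (1.04) and in AdNTF3-Tg (0.54), but its reads were 22, 14, 19 and 18 in the order WT_1, WT_2, TRKC+/- and AdNTF3-Tg, and the interval of the ratio of reads against both WT libraries together was -0.83 to 0.90 and -0.91 to 0.85.

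Of the transcription factors and partners of the myelin program, 11 of 11 were listed in all libraries, with a median log2 fold change of 0.18 in the library labelled TRKC+/- and 0.066 in AdNTF3-Tg, and 2 past the cutoff in each, all higher, where 3.48% and 4.01% of all genes were higher. *Sox10*, the partner of EGR2, had 42.5 FPKM in WT_1, 36.8 FPKM in WT_2, 50.3 FPKM in the library labelled TRKC+/- and 41.3 FPKM in AdNTF3-Tg. It was highest in the library labelled TRKC+/- (0.34), with intervals above 0 against WT_1 (0.11 to 0.36) and WT_2 (0.33 to 0.58), and inside the WT range in AdNTF3-Tg. *Pou3f2*, a POU factor of Schwann cell development, had 1.11, 0.96, 1.46 and 1.63 FPKM in the order WT_1, WT_2, TRKC+/- and AdNTF3-Tg. In AdNTF3-Tg its log2 fold change was 0.61, with intervals above 0 against WT_1 (0.057 to 1.04) and WT_2 (0.25 to 1.27). *Yy1*, a widely expressed zinc finger factor, was at 0.54 in AdNTF3-Tg. Past the cutoff in the library labelled TRKC+/- were *Pou3f1*, a POU factor of promyelinating Schwann cells, and *Nfatc4*, a calcium-regulated factor. *Pou3f1* had 8, 1, 12 and 3 reads in the same order of libraries, and its interval in the library labelled TRKC+/- was 0.022 to 2.82 against both WT libraries together, included 0 against WT_1 (-0.86 to 2.04) and lay above 0 against WT_2, which had a single read (lower bound 0.82). *Nfatc4* had 19, 19, 31 and 16 reads, with an interval of -0.049 to 1.41 against both WT libraries together.

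The other lists of nerve and ganglion cells are given beside a share of all genes past the cutoff of 11.0% in AdNTF3-Tg and 8.56% in the library labelled TRKC+/-, so that none past it in a list of about 8 genes is near the background. Of 8 neuregulin and adhesion GPCR genes, which signal for myelination, none was past it, with medians of 0.056 in AdNTF3-Tg and 0.092 in the library labelled TRKC+/-. *Erbb3*, the neuregulin receptor of Schwann cells, had 18.5 to 21.0 FPKM, and *Dhh*, a hedgehog signal from Schwann cells, 22.9 to 26.3 FPKM. The 8 genes of nodes and paranodes, the gaps between myelin segments and their flanks, had medians of 0.11 and 0.047 and none past the cutoff. Of 15 genes of immature, non-myelinating and repair Schwann cells, 11 were listed in all libraries, with medians of -0.031 and 0.086 and none past the cutoff. *Ngfr*, the low-affinity neurotrophin receptor also found in sympathetic neurons, was at 316 to 360 FPKM. Satellite glia genes had medians of 0.055 and 0.046 and sympathetic neuron genes 0.017 and 0.034, none past the cutoff. Thus the median of the myelin genes in the library labelled TRKC+/- (0.15) was above those of satellite glia and neuron genes, and close to that of perineurial and nerve fibroblast genes (0.14). This order turned with the WT library, since against WT_1 alone the median of the myelin genes was 0.017, below satellite glia (0.055) and sympathetic neuron genes (0.0365), and against WT_2 alone it was 0.23, above both (0.082 and 0.0059). These differences between lists were not tested. Of 8 sensory neuron genes, 7 were listed in all libraries, with medians of 0.50 in AdNTF3-Tg (4 past the cutoff, all higher, where 4.01% of all genes were) and -0.40 in the library labelled TRKC+/- (1 higher and 1 lower, where 3.48% and 5.09% of all genes were). Those past the cutoff had few reads, with 23 to 52 per library for *Calca*, 10 to 39 for *Scn10a*, 3 to 10 for *Trpv1* and 3 to 9 for *Prdm12*. They summed to 206.7 FPKM in WT_1, 205.8 FPKM in WT_2, 199.1 FPKM in the library labelled TRKC+/- and 216.3 FPKM in AdNTF3-Tg, nearly all from *Avil*, and their part in the myelin values was not tested.

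**Figure D4:**
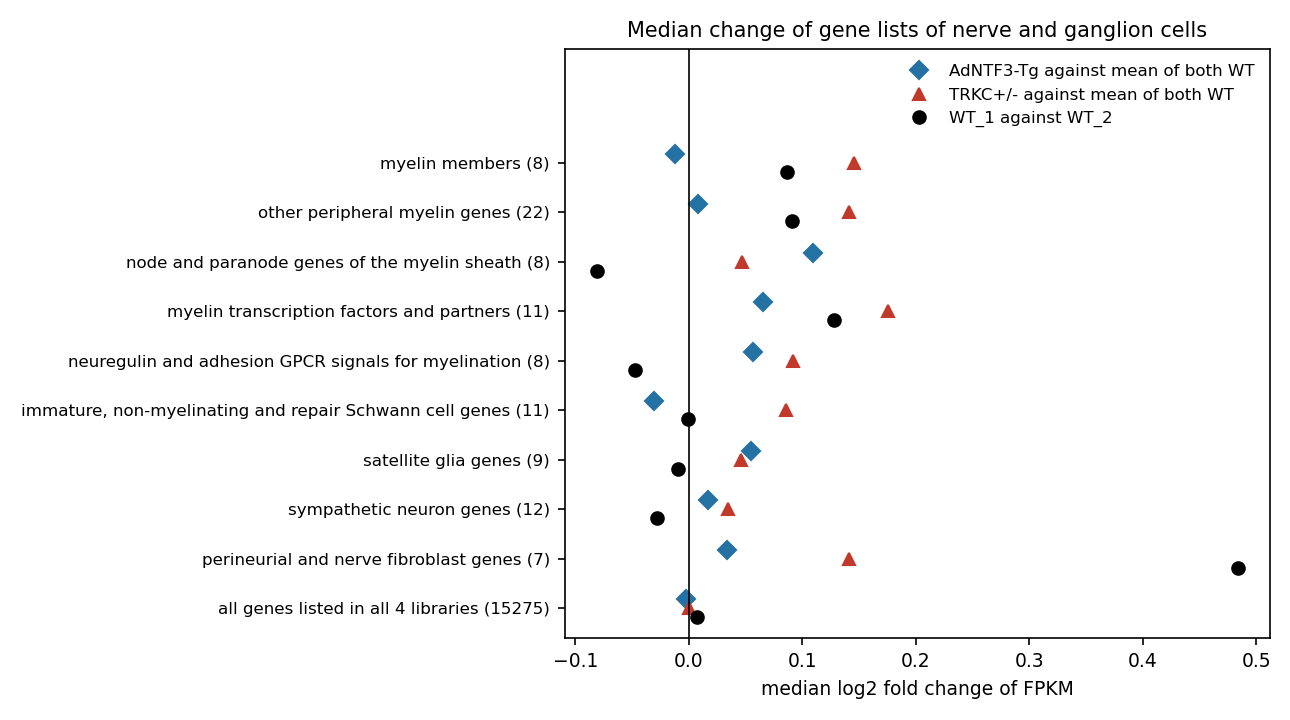
Median log2 fold change of FPKM (x axis) of gene lists of nerve and ganglion cells and of all genes (number of genes listed in all libraries in brackets), for both mutant libraries and between the WT libraries. The oligodendrocyte, sensory neuron, adipocyte and skeletal muscle lists are not drawn, the last with a median of 4.98 between the WT libraries. The myelin genes and the other peripheral myelin genes are at 0.15 and 0.14 in the library labelled TRKC+/- and near 0 in AdNTF3-Tg, and of the lists drawn the perineurial one is farthest from 0 between the WT libraries (0.48).

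The profile of the myelin genes over the 4 libraries, taken as the median of their log2 levels after centring each gene on its own mean, was 0.028 in WT_1, -0.12 in WT_2, 0.13 in the library labelled TRKC+/- and -0.046 in AdNTF3-Tg. Among 6794 other genes averaging 10 FPKM or more, the 5 with the nearest profile by Euclidean distance on the log2 scale were *Vwa1* (0.0099), *Tpgs1* (0.019), *Cpne2* (0.020), *Mepce* (0.023) and *Lama4* (0.025), where the median distance was 0.24. *Vwa1* encodes an extracellular matrix protein of basement membranes and *Lama4* a laminin chain. Likeness over 4 libraries is a description only.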

How the data were processed

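mRNA was enriched with oligo(dT) from SG pooled from 6 mice per library and sequenced as single-end reads. The authors filtered reads with SOAPnuke and mapped them with HISAT2 to mm9 according to the study's methods, while the submitters' processing notes name RSEM and mm10, and the sources used here do not settle which holds. The authors deposited an expected count (an estimated count of reads, not normalized) for each gene with reads, of which between 92.6% and 93.7% per library were whole. They also deposited FPKM, which divides that count by gene length and library reads, and a gene length that can vary between libraries with the transcripts' shares. Whether counting used strand is not given in the sources used here.

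The myelin genes and the other gene lists were chosen with earlier results of these data known. Symbols came from a RefSeq table on GRCm38.p6 (17619 identifiers, 99.7%), positions from GENCODE on NCBIM37, and start-site windows from RefSeq on GRCm38.p6. Log2 fold changes used FPKM with a pseudocount of 0.1 over 15275 genes listed in all 4 libraries and no other filter, and understate the change of low genes. Counting intervals are exact Clopper-Pearson 95% intervals on expected counts rounded to whole numbers. Neither they nor the floor of 3 reads cover more than counting error. edgeR 4.0.16 (R 4.3.3; TMM, filterByExpr, glmQLFit, glmQLFTest) was run on the rounded counts of all 4 libraries with Benjamini-Hochberg adjustment over all genes tested. The study names a respective WT control for each mutant, and the labels name no separate replicate cohorts. The p-values of edgeR therefore measure the spread between 2 WT pools, which may be technical or hold differences between the lines of mice. It was tested on simulated data for AdNTF3-Tg over 14068 genes, where 87 of 97 genes changed by 1 and 103 of 103 genes changed by 2 on the log2 scale were recovered and 17 unchanged genes were called. In the simulation only genes with more reads than *Pllp* and *Egr2* were changed, and 1 dispersion was set for all genes and libraries. The recovery therefore does not apply to *Pllp* and *Egr2*, nor to differences in tissue content between pools. DESeq2 1.42.0, other normalization, pseudocounts of 1 and 0.01, a filter at a mean of 1 FPKM, missing genes as 0, centring, TMM-scaled counts (prior count 2) and each WT library alone were alternatives.

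Named are the 8 genes, *Ntrk3* and *Ntf3* as checks, at most 4 genes of each list by mean FPKM, genes past the cutoff against both WT libraries, and the 5 nearest profiles. Genes outside this rule were named after their values were seen (*Gal3st1*, and markers at or near 0 or past the cutoff in a list, such as *Gjb1*, *Pmp2* and *Pou3f1*). Single values of some genes of the lists are not reported here.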

Additional observations from a re-analysis of the deposited data

How the results depend on the processing

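The number of genes past the cutoff depended most on low values. It was 1308 in the library labelled TRKC+/-, 1674 in AdNTF3-Tg and 2044 between the WT libraries. With a pseudocount of 1 it was 269, 404 and 633, with a mean of at least 1 FPKM it was 427, 691 and 926, and with missing genes taken as 0 it was 2602, 2996 and 3381, in the same order. Against single WT libraries it ranged from 1632 to 1933 in the library labelled TRKC+/- and from 2033 to 2116 in AdNTF3-Tg. Of the 8 myelin genes, 2 passed the cutoff in AdNTF3-Tg, and 1 did with a pseudocount of 1 or with a mean of at least 1 FPKM, which leaves *Pllp* and *Egr2* out by construction. Between 1 and 2 passed it against single WT libraries. In the library labelled TRKC+/- none passed it, and 1 did with TMM-scaled counts (*Egr2*, 0.54), and 0 to 1 against single WT libraries. The median log2 fold change of the 8 genes ranged from 0.017 to 0.23 in the library labelled TRKC+/- and from -0.11 to 0.0044 in AdNTF3-Tg when 1 WT library was left out, so the sign in AdNTF3-Tg depended on the WT library. edgeR called 1 gene in the library labelled TRKC+/-, and 2 with RLE size factors, 0 without a filter and 2 with DESeq2. In AdNTF3-Tg each of these settings called 0. Of 124 values of single myelin genes under alternatives, 117 moved by less than the spread between the WT libraries and 7 by more. The cause of the 7 larger moves was not tested. Leaving 1 WT library out moves a value by less than this spread nearly by construction, and some alternatives leave a value unchanged. *Egr2* in the library labelled TRKC+/- counts as unmoved, at 0.42 against the mean and 1.05 against WT_1. The count is therefore no measure of stability. Depth limits *Pllp* and *Egr2*, with 8 to 20 reads per library, and the single library per mutant limits every comparison. No paired analysis was possible because each mutant has 1 library and shares no more than 1 replicate number with WT.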
